A study of Mus musculus with 24 samples.

Results

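Iroquois (IRX) and T-box (TBX) genes encode DNA-binding transcription factors, and 10 of them were followed here: Irx1, Irx2, Irx3, Irx5, Tbx1, Tbx2, Tbx3, Tbx5, Tbx18 and Tbx20. The 10 genes were taken by symbol from the 32040 gene symbols in the deposited tables. All 10 symbols were found. RNA was measured in supporting cells sorted from mouse fetal gonads at 4 stages named by the age of the embryo in days (E11.5, then E12.5, followed by E13.5 and E15.5), with 3 libraries in each of 8 groups and 24 in all. The XX pre-granulosa cells carried Tg(Enh8-mCherry), the XY Sertoli cells were of genotype SOX9-IRES-GFP, and no treatment is named for either. Sex, mouse line and sorting fluorophore therefore changed together, and each XX minus XY difference is one between these kinds of sorted library. By its name the XY line reports SOX9, so Sox9 among the Sertoli markers is tied to the sort, and the labels do not say which cells the Enh8-mCherry transgene marks. The labels do not say whether the 3 libraries of a group came from separate animals, so p-values measure the spread between these libraries, which may be technical.

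Iroquois factors carry a homeodomain of the TALE class, named for an extra loop of 3 amino acids, and their genes lie in clusters, with Irx1 and Irx2 in one and Irx3 and Irx5 in another. T-box factors share the T-box DNA-binding domain. Tbx2 and Tbx3 encode repressors, and Tbx1, Tbx5, Tbx18 and Tbx20 are best known from the pharynx, limb, heart and urogenital mesenchyme. In the fetal ovary, Irx3 and Irx5 are known as genes of the somatic cells that surround germ cells. Pre-granulosa cells are the supporting cells of the ovary and Sertoli cells those of the testis, and both arise from a shared progenitor in the gonadal ridge.

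The labelled cell types were checked first. The summed level of 8 Sertoli markers was 1498 to 2599 CPM (counts scaled to a common library size) in the XY E11.5 libraries, 7461 to 9308 CPM in later XY libraries, and at most 341 CPM in any XX library. The sum of 6 pre-granulosa markers was 844 to 1119.5 CPM in XX libraries from E12.5 on and 78.7 to 278 CPM in all XY libraries. Of these 6, Lgr5 went the other way at E11.5, with 212, 220 and 136 CPM in XY. The XX E11.5 libraries had 26.8, 76.0 and 19.6 CPM of Lgr5, and Lgr5 made up most of each XY sum. At E12.5 the XY libraries also lay above those of XX, with 264, 270 and 255 CPM of Lgr5 against 223, 219 and 123 CPM. At E11.5 the XX libraries were uneven, since Foxl2, a transcription factor that defines granulosa cells, was at 2.62, 35.2 and 4.73 CPM in replicates 1 to 3. XX E11.5 replicate 3 had the highest stromal sum (2166 CPM over 8 markers) and the highest erythroid sum (27684 CPM over 6 markers) of the 24 libraries, while XY libraries had an erythroid sum of at most 113 CPM. Immune markers summed to between 15.2 and 239.8 CPM in XX and to at most 1.46 CPM in XY. XY E11.5 replicate 3 contained 40.8 CPM of Xist, the RNA of the inactive X chromosome, against 0.272 and 6.32 CPM in the other XY E11.5 libraries and 61.6 to 118 CPM in XX libraries. For XX E13.5 replicate 1, the title gives E13.5 and the stage field E12.5, and it was kept at E13.5. Total counts ran from 11275251 to 37256881 per library.

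Of the 10 genes, 8 had enough counts to be tested, and Irx2 and Tbx5 did not. A gene that is near 0 in most groups passed this filter only through the group where it was high, so the counts of called genes below describe these 8 and not the family. At E11.5, 4 of the 8 differed between XX and XY at an adjusted p under 0.05 (edgeR's quasi-likelihood test, Benjamini-Hochberg adjustment over 16190 genes), beside 42.0% of all genes tested. Of these, 3 were higher in XX and 1 in XY, beside 21.4% and 20.6% of all genes. At E12.5, 4 of 8 were called, all higher in XX, beside 62.1% of all genes called, 30.5% higher in XX and 31.5% in XY. At E13.5, 6 of 8 were called, 5 higher in XX and 1 in XY, beside 66.1% of all genes (32.8% and 33.3%). At E15.5, 5 of 8 were called, 4 higher in XX and 1 in XY, beside 69.4% of all genes (34.9% and 34.4%). Counted without regard to direction, the shares called lay near those of all genes. Calls higher in XX were more frequent among the 8 than among all genes at each stage, and calls higher in XY were less frequent. The 8 were chosen with earlier results of these data known, so this describes them only. Irx3 and Irx5 were called higher in XX at all 4 stages, and Tbx2 and Tbx3 at the 3 later stages. Tbx1 was called higher in XY at E13.5 and E15.5.

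**Figure D1:**
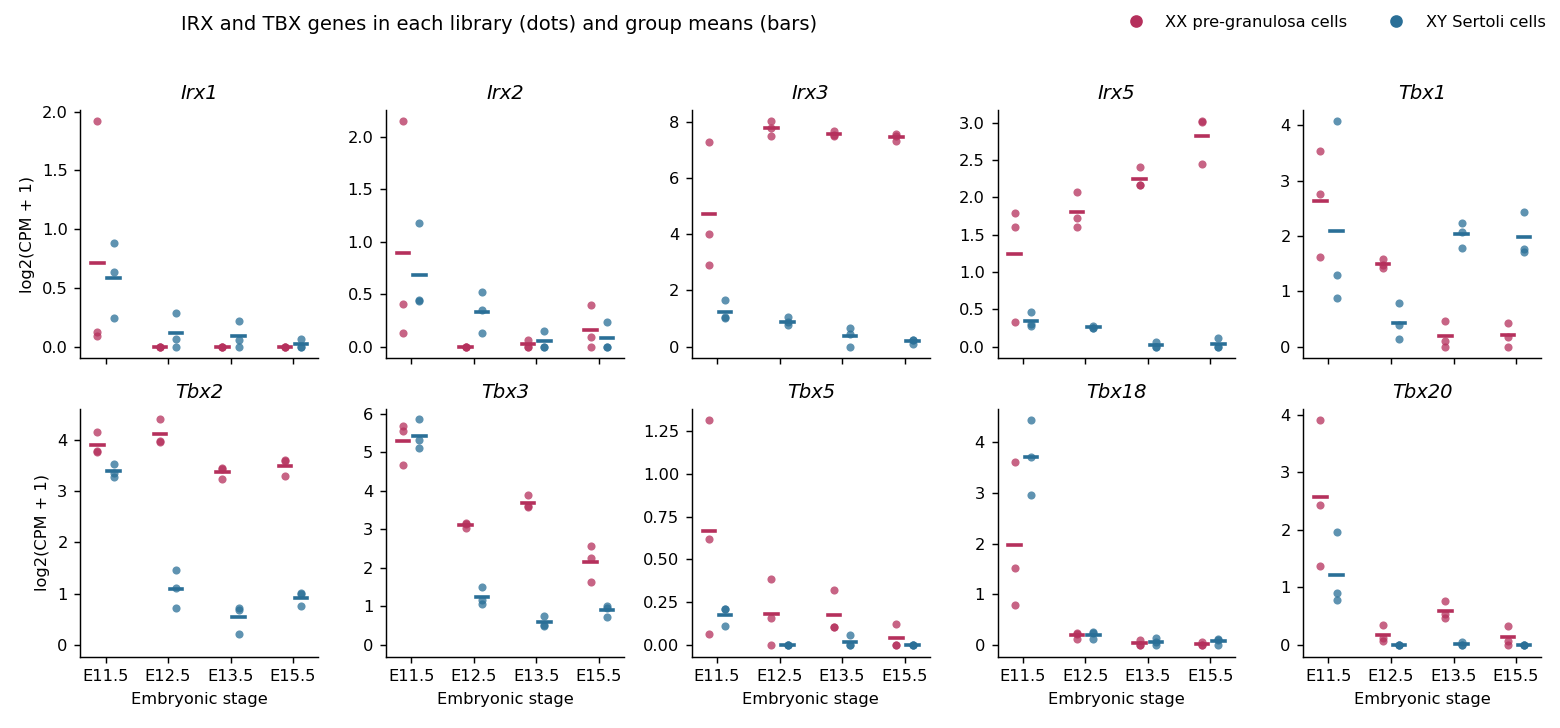
Level of each of the 10 genes as log2(CPM + 1) at the 4 embryonic stages, with 1 dot for each of the 24 libraries and a bar at the mean of 3 (XX red, XY blue). The vertical scale differs between panels. Irx3 and Irx5 have the higher mean in XX at every stage, Irx5 at a low level. Tbx2 and Tbx3 are present in both sexes at E11.5 and higher in XX from E12.5 on, and Tbx18 and Tbx20 are near 0 after E11.5.

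Levels were compared between genes on the deposited TPM scale, which accounts for gene length and library size. Irx3 was the most abundant of the 10 genes in every XX group, at 31.96 ± 44.1 TPM (SD, n = 3) in XX E11.5 and, for the later groups in order, 134 ± 23.3, 99.3 ± 5.10 and 91.9 ± 9.96 TPM. The XX E11.5 mean rests on replicate 2, with 82.8 TPM of Irx3, and Tbx3 exceeded Irx3 in replicate 1 (16.8 against 9.39 TPM) and replicate 3 (18.55 against 3.74 TPM). In XX cells at E12.5, the next was Tbx2 at 7.51 ± 1.41 TPM (n = 3). In XY cells at E11.5 the most abundant was Tbx3, at 16.0 ± 4.69 TPM (n = 3), and at E13.5 and E15.5 it was Tbx1, at 2.79 ± 0.73 and 2.31 ± 0.91 TPM (n = 3 each). No member had a group mean above 0.68 TPM in XY cells at E12.5.

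**Figure D2:**
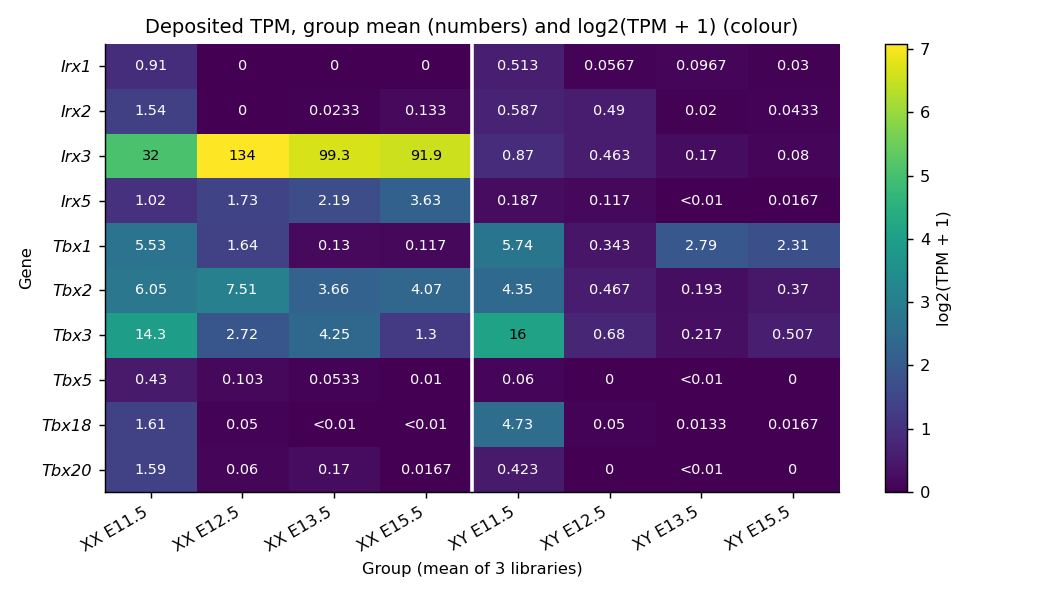
Heat map of the 10 genes (rows) in the 8 groups (columns, XX left of the white line and XY right). Numbers are the mean deposited TPM of 3 libraries and colour is log2(TPM + 1), and Irx3 in XX at E12.5 has the highest value, 134 TPM.

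Irx3 lies on chromosome 8 at 91798525 to 91802067 on the minus strand of GRCm38, and Irx5 lies 555.6 kb away at 92357625 to 92376286 on the plus strand. Irx3 levels in the XX libraries were 15.3, 154 and 6.42 CPM on E11.5, then 181, 258 and 218 CPM on E12.5, 187, 202 and 181 CPM on E13.5, and 187, 178 and 159 CPM on E15.5. The 3 XY libraries of E11.5 had 1.06, 2.12 and 1.04 CPM, and no later XY library had more than 1.07 CPM. The XX and XY libraries did not overlap at any stage, and the 3 later XX groups overlapped one another. XX E11.5 replicate 2 stood at the level of the later stages, and the other 2 libraries of its group lay well below it. That replicate was also the one with the highest Foxl2 of its group, and its Fst, which encodes the activin antagonist follistatin, was at 479 CPM against 135 and 109 CPM. The pre-granulosa sum was 786 CPM in that replicate, 317 CPM in replicate 1 and 248 CPM in replicate 3, and its part in the Irx3 level was not tested. In bulk RNA of sorted cells, fewer cells of a type and less RNA per cell cannot be told apart.

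The Irx3 difference between XX and XY was 5.38 on the log2 scale at the first stage (SE 0.81, edgeR adjusted p 3.16e-05), and then 7.99 (SE 0.94, 5.22e-07), 9.07 (SE 1.03, 2.84e-07) and 10.22 (SE 1.18, 2.62e-07). These correspond to ratios of mean CPM of 41.6, 255, 612 and 1293. The XY groups held 161, 57, 25 and 8 Irx3 counts in all, so the ratios of the later stages rest on few XY counts. Without XX E11.5 replicate 2, the Irx3 log2 difference at E11.5 was 2.95, with an edgeR adjusted p of 1.23e-06. Within XX, Irx3 rose by 1.89 (SE 0.65, edgeR adjusted p 0.0300) from E11.5 to E12.5. This rise in Irx3 was 4.32 without XX E11.5 replicate 2, and the call was lost without XX E11.5 replicate 1 (1.45, edgeR adjusted p 0.114) or replicate 3 (1.38, 0.0613) and without XX E12.5 replicate 2 (1.71, 0.0890) or replicate 3 (1.84, 0.0654). The rise in Irx3 was also not called in DESeq2 (adjusted p 0.0598), without the filter (0.0653) or with only the libraries compared (0.256). After E12.5 no step of Irx3 passed the test in XX, with log2 changes of -0.21 (SE 0.62) to E13.5 and -0.12 (SE 0.62) to E15.5. All 24 libraries share 1 estimate of the spread per gene. The uneven XX E11.5 libraries (Irx3 58.6 ± 82.8 CPM, n = 3) therefore also enter these SEs. Among XY libraries Irx3 had group means of 1.41 ± 0.61, 0.860 ± 0.197, 0.310 ± 0.289 and 0.135 ± 0.062 CPM (n = 3 each), and no step passed the test. The F test across stages for Irx3 gave an edgeR adjusted p of 0.231 in XY and 0.0659 in XX, and without XX E11.5 replicate 2 these were 0.000791 and 1.27e-08. In DESeq2 the XY test of Irx3 gave an adjusted p of 0.00320. Irx3 overlaps the antisense gene Irx3os over 1653 bp in GENCODE M21. Whether strand was used in counting is not given in the sources used here, so reads of the 2 genes cannot be told apart.

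Irx5 was also called higher in XX at each stage, at a far lower level. Its XX levels were 2.03, 2.48 and 0.259 CPM on E11.5, 2.29, 2.05 and 3.21 CPM on E12.5, 3.48, 4.32 and 3.47 CPM on E13.5 and 7.12, 4.46 and 7.04 CPM on E15.5. Its XY levels were 0.380, 0.232 and 0.209 CPM on E11.5 and 0.187, 0.216 and 0.183 CPM on E12.5. The XY E13.5 libraries held 1 Irx5 count in all and the XY E15.5 libraries 2. XX E11.5 replicate 3 lay inside the XY range, and at the 3 later stages the sexes did not overlap.

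The Irx5 log2 difference was 2.55 (SE 0.53, edgeR adjusted p 0.000586) at E11.5 and 3.65 (SE 0.58, 1.40e-05) at E12.5. At E13.5 the Irx5 ratio of XX to XY was 276, with a 95% counting interval of 48.9 to 10948, and at E15.5 it was 178 (48.7 to 1473). These intervals cover counting error only. The edgeR adjusted p for Irx5 was 5.56e-08 at E13.5 and 2.35e-08 at E15.5. With only the 6 libraries of E11.5 in the fit, the Irx5 call was lost at that stage (log2 2.53, edgeR adjusted p 0.0623). Across the 4 stages Irx5 changed in XX (F test, edgeR adjusted p 0.00468), where the group mean went from 1.59 ± 1.17 to 6.21 ± 1.51 CPM (n = 3 each), while no single step in XX passed the test. In XY, Irx5 changed across stages (edgeR adjusted p 0.00505) and fell from E12.5 to E13.5 (adjusted p 0.0452). That fall was not called in 18 of the 24 fits that each left out 1 library, with adjusted p up to 0.174 for Irx5.

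The gene beside Irx5 had a like profile. Crnde, a long non-coding RNA gene, starts on the other strand 1.504 kb from Irx5 and was in a list of 5 genes next to members. Crnde was at 2.49 ± 1.49, 4.06 ± 0.78, 4.57 ± 0.55 and 9.37 ± 0.79 CPM in XX at the 4 stages, and at 0.543 ± 0.071, 0.522 ± 0.190, 0.332 ± 0.062 and 0.455 ± 0.111 CPM in XY (n = 3 each). Its log2 difference was 2.20, 2.94, 3.75 and 4.37 at the 4 stages, with edgeR adjusted p from 5.27e-05 to 3.70e-09. The XX E11.5 library with the least Irx5, replicate 3, also held the least Crnde of its group, 0.843 CPM against 3.74 and 2.89 CPM. Over the 12 XX libraries, Pearson's r of log2 CPM was 0.931 between Irx5 and Crnde, 0.884 between Irx3 and Foxl2 and 0.769 between Irx3 and Irx5. Over the 12 XY libraries these were 0.486, 0.365 and 0.809. No XY library had more than 10 counts of Foxl2 or 14 of Irx5, so the XY values rest on few counts. The libraries of a stage share their stage and sort, and XX and XY form separate clusters, so these values are descriptions. Fto, on the other side of Irx3 at a distance of 130.1 kb, differed little: it had 317 ± 18.3 CPM in XX against 267 ± 6.05 CPM in XY on E11.5 (n = 3 each), and its largest log2 difference was 0.36 (SE 0.09, edgeR adjusted p 0.00184) at E13.5.

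**Figure D3:**
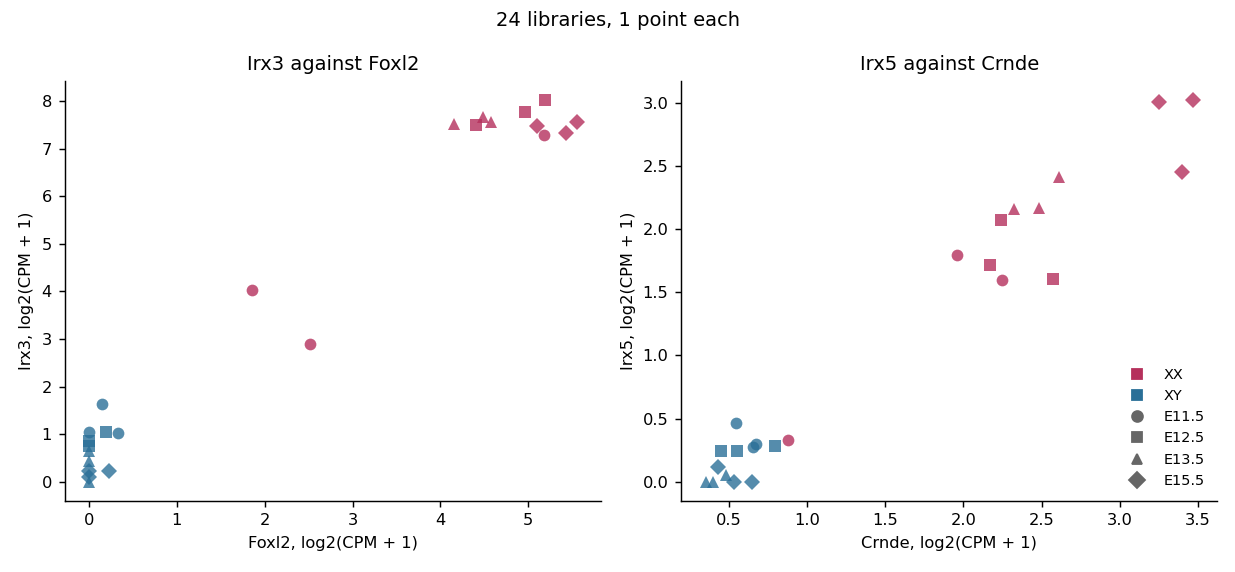
Irx3 against Foxl2 (left) and Irx5 against Crnde (right) in log2(CPM + 1), 1 point for each of 24 libraries, coloured by sex and shaped by stage. In the left panel XX E11.5 replicate 2 (Irx3 154 CPM, Foxl2 35.2 CPM) sits among the later XX libraries, and the other 2 of its group lie between the XX and XY clusters.

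Irx1 and Irx2, of the other cluster (chromosome 13, 665.1 kb apart), were nearly silent. Irx1 was at 2.78, 0.092 and 0.065 CPM in XX on E11.5 and at 0.842, 0.181 and 0.548 CPM in XY of that stage, and the groups overlapped. No count of Irx1 was found in the 9 later XX libraries, and no later XY library exceeded 0.216 CPM. From E11.5 to E12.5, Irx1 was at least 23.0-fold lower in XX (floor of 3 counts over the group, edgeR adjusted p 0.0114). The call rests on 1 library: without XX E11.5 replicate 1, which held 52 of the 55 Irx1 counts, the adjusted p was 0.185. Irx1 passed the filter through E11.5 libraries, so only a fall could be called over this step. Irx2 had 64, 2 and 5 counts in XX E11.5, 13, 14 and 48 in XY E11.5, none in XX E12.5 and 2, 10 and 6 in XY E12.5, and it was not tested. XX E11.5 replicate 1 thus held most XX counts of both genes. Of the rest of the family, Irx4 had 2 counts over all 24 libraries and Irx6 at most 0.453 CPM in any library, and neither could be tested.

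Tbx2 and Tbx3 were expressed in both sexes at E11.5 and were called higher in XX afterwards. Tbx2 (chromosome 11, 85832551 to 85841948, plus strand) had 12.7, 16.8 and 12.51 CPM in XX on E11.5 and 8.67, 9.16 and 10.5 CPM in XY. The 2 groups did not overlap at E11.5, while the log2 difference of 0.57 (SE 0.24, 95% interval 0.07 to 1.07) did not pass after adjustment (edgeR adjusted p 0.0624). It passed for Tbx2 in DESeq2 (adjusted p 0.0156), on log2(TPM + 1) in limma (adjusted p 0.0358), and without XY E12.5 replicate 1 (0.0364) or XY E13.5 replicate 1 (0.0345).

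From E12.5 on, Tbx2 stayed at 14.5, 14.6 and 20.1 CPM, then 9.93, 9.75 and 8.38 CPM, then 8.86, 10.995 and 11.1 CPM in XX. Its XY levels were 0.654, 1.16 and 1.74 CPM on E12.5, 0.166, 0.638 and 0.608 CPM on E13.5, and 0.998, 1.01 and 0.696 CPM on E15.5. Each XX library was above each XY library of its stage. The log2 difference of Tbx2 was 3.78 (SE 0.29, edgeR adjusted p 3.21e-10), 4.23 (SE 0.32, 2.19e-10) and 3.497 (SE 0.30, 1.51e-09) at the 3 later stages in order. The separation came with a fall in XY, where Tbx2 dropped by 2.99 (SE 0.28, edgeR adjusted p 1.85e-08) from E11.5 to E12.5. The XX change over the same step was 0.22 (SE 0.24, adjusted p 0.506). From E12.5 to E13.5 Tbx2 fell by 0.81 in XX (edgeR adjusted p 0.0152) and by 1.25 in XY (0.0171). The XX fall in Tbx2 was not called without XX E12.5 replicate 3 (0.114), XX E13.5 replicate 2 (0.0530) or replicate 3 (0.0659), and the XY fall not without XY E12.5 replicate 2 (0.0555), replicate 3 (0.159) or XY E13.5 replicate 1 (0.0842).

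Tbx3 (chromosome 5, 119670669 to 119684724, plus strand) fell in both sexes, and further in XY. On E11.5 its XX libraries had 45.7, 24.4 and 50.2 CPM, and those of XY had 33.2, 57.0 and 38.5 CPM. These groups overlapped, and the log2 difference was -0.10 (SE 0.26, 95% interval -0.63 to 0.43, edgeR adjusted p 0.781). On E12.5 Tbx3 had 7.96, 7.14 and 7.73 CPM in XX against 1.82, 1.25 and 1.10 CPM in XY. On E13.5 its values were 13.9, 10.9 and 11.1 CPM in XX against 0.442, 0.398 and 0.679 CPM in XY, and on E15.5 they were 3.73, 4.93 and 2.09 CPM against 0.651, 0.954 and 1.01 CPM. The sexes overlapped at none of these 3 stages.

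The Tbx3 log2 difference at the 3 later stages was 2.45 (SE 0.32, edgeR adjusted p 9.13e-07), 4.52 (SE 0.36, 5.88e-10) and 2.03 (SE 0.37, 5.22e-05). From E11.5 to E12.5 Tbx3 fell by 2.39 (SE 0.28, edgeR adjusted p 5.63e-06) in XX and by 4.95 (SE 0.32, 8.59e-11) in XY. It fell again by 1.76 (SE 0.30, edgeR adjusted p 0.000225) from E13.5 to E15.5 in XX. The XY step of Tbx3 from E12.5 to E13.5, -1.42 (edgeR adjusted p 0.0207), was not called without XY E12.5 replicate 1 (0.0880), XY E13.5 replicate 1 (0.0592) or XY E13.5 replicate 2 (0.0937). Tbx3 shares 697 bp with the antisense gene Tbx3os1, which had at most 57.0 counts in any library.

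**Figure D4:**
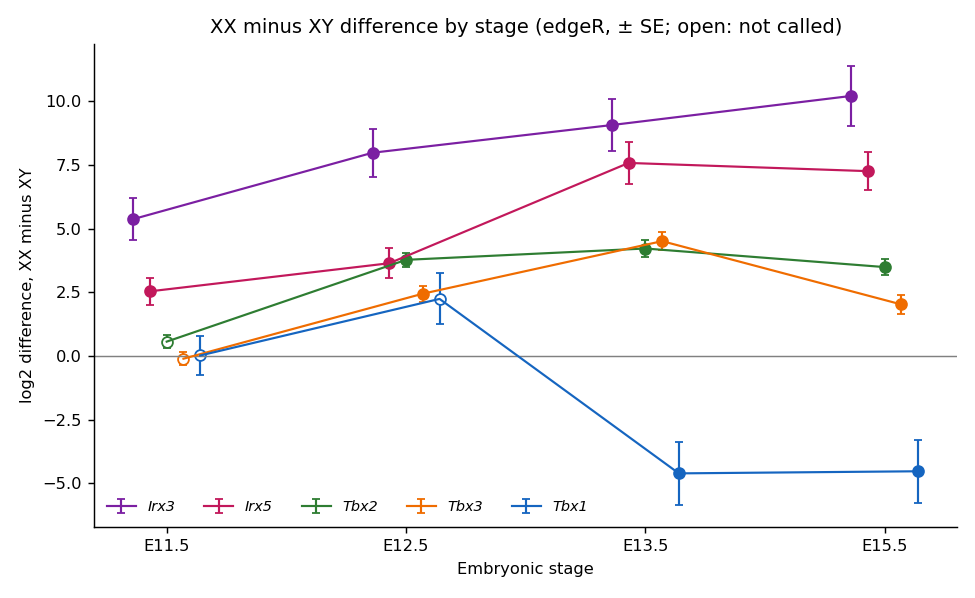
XX minus XY log2 difference (vertical axis, edgeR, bars ± SE) of Irx3, Irx5, Tbx2, Tbx3 and Tbx1 at the 4 embryonic stages (horizontal axis), filled where called and open where not. Irx3 and Irx5 are above 0 at every stage, Tbx2 and Tbx3 move away from 0 after E11.5, and Tbx1 changes from 2.25 (not called) at E12.5 to -4.60 at E13.5.

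Summed markers of other cell types also changed, in part in the direction of Tbx2 and Tbx3 and in part not. The sum of the 8 stromal and interstitial markers was 615 to 1023 CPM in XY on E11.5, 35.0 to 153 CPM in later XY libraries, 354 to 2166 CPM in XX on E11.5 and 203 to 393 CPM in later XX libraries. From E11.5 to E12.5, 7 of these 8 markers fell in XY (24.8% of all genes) and 3 of 8 in XX (17.3%), and at E12.5 all 8 were higher in XX (30.5%). The sum of the 7 mesonephric tubule and duct markers was 131 to 144 CPM in XY E11.5, 15.8 to 26.0 CPM in later XY libraries and 161 to 335 CPM in XX libraries. Wnt9b was at 0 in all XX E12.5 and XX E15.5 libraries, and Lhx1 in all XX E12.5 libraries. Single markers did not all follow the sum. At E11.5, 3 of the 7 were called higher in XY and 2 in XX (20.6% and 21.4% of all genes). At the later stages 1 was called higher in XY each time (31.5%, 33.3% and 34.4%), against 5, 4 and 3 in XX (30.5%, 32.8% and 34.9%). The 6 surface epithelium markers summed to 28.3 to 84.7 CPM in XY and 61.8 to 122 CPM in XX on E11.5. From E12.5 on they summed to 16.2 to 23.3 CPM in XY libraries and 61.1 to 569 CPM in XX libraries. Their mean sum in XX rose from 92.8 CPM on E11.5 to 558 CPM on E15.5, while mean Tbx3 in XX went from 40.1 to 3.59 CPM. The part of these markers in the Tbx2 and Tbx3 values was not tested.

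Tbx1 was called higher in XY at E13.5 and E15.5, and at E12.5 its XX libraries lay above those of XY without a call. This gene, of the region deleted in DiGeorge syndrome, lies on chromosome 16 at 18580979 to 18590671 on the minus strand. Its XX levels were 10.6, 2.06 and 5.77 CPM on E11.5, then 1.67, 1.77 and 1.98 CPM on E12.5, 0.370, 0 and 0.076 CPM on E13.5, and 0.347, 0.133 and 0 CPM on E15.5. Its XY levels were 0.842, 1.45 and 15.8 CPM on E11.5, then 0.093, 0.302 and 0.731 CPM on E12.5, 2.43, 3.19 and 3.72 CPM on E13.5, and 4.43, 2.41 and 2.28 CPM on E15.5. XX libraries lay above XY libraries at E12.5 and below them at E13.5 and E15.5, with no overlap at these 3 stages. At E11.5 the sexes overlapped, and the highest of the 6 values was that of XY E11.5 replicate 3, the library with 40.8 CPM of Xist.

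The Tbx1 log2 difference was -4.60 (SE 1.24, edgeR adjusted p 0.00276) on E13.5 and, at the last stage, -4.52 (SE 1.24, 0.00308), or 20.9-fold and 19.0-fold higher mean CPM in XY. The XX libraries held 6 Tbx1 counts in all at each of these stages, so both ratios rest on few XX counts. At E12.5 the Tbx1 log2 difference was 2.25 (SE 1.0, 95% interval 0.16 to 4.33) and missed the threshold (edgeR adjusted p 0.0573). That E12.5 difference in Tbx1 was called in DESeq2 (adjusted p 0.0256) and without XY E11.5 replicate 1 (0.0282), replicate 2 (0.0407) or replicate 3 (0.00754) or XY E12.5 replicate 3 (0.0402). At E11.5 the Tbx1 difference was 0.03 (SE 0.78, edgeR adjusted p 0.985), and without XY E11.5 replicate 3 it was 2.43 (adjusted p 0.00949).

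Over stages, Tbx1 fell by 3.81 (SE 1.27, edgeR adjusted p 0.0269) from E12.5 to E13.5 in XX. In XY it fell by 3.98 (SE 0.98, edgeR adjusted p 0.00199) from E11.5 to E12.5 and rose by 3.04 (SE 0.98, 0.0391) from E12.5 to E13.5. Without XY E11.5 replicate 3, the first XY step of Tbx1 was -1.66 and not called (edgeR adjusted p 0.0808). The XY rise in Tbx1 was not called without any 1 of the 6 libraries of its 2 groups (log2 changes 2.60 to 3.95, edgeR adjusted p 0.0502 to 0.135). Without the filter, neither this rise in Tbx1 (adjusted p 0.0873) nor its XX fall (0.0627) was called. The XX fall in Tbx1 was not called without XX E12.5 replicate 2 (adjusted p 0.0540) or replicate 3 (0.0561), or XX E13.5 replicate 2 (0.137) or replicate 3 (0.0822), and was -5.79 without XX E13.5 replicate 1 (edgeR adjusted p 0.0258). The 2 later sex differences of Tbx1 were called in each of the 24 fits that left out 1 library.

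Promoter sequence is shown for Tbx1, the member called higher in XY at the 2 later stages, and for Tbx18, the other T-box member whose window held the T-box motif searched. The windows are the 250 bases before a RefSeq transcription start (GRCm38.p6), written 5′ to 3′ on the strand of the gene, with the T-box motif GGTGTNA in capitals where present. Windows were given for 5 of the 10 genes (Irx2, Irx3, Tbx1, Tbx18 and Tbx20), and Tbx1 has a pair of starts. These starts are numbered by genome position. Tbx1 is on the minus strand, so its second start lies upstream and its first start lies inside the gene. The first Tbx1 window, at chr16:18588900-18589149 (minus strand), has a GC content of 67.2% and no match:
Tbx1 first start: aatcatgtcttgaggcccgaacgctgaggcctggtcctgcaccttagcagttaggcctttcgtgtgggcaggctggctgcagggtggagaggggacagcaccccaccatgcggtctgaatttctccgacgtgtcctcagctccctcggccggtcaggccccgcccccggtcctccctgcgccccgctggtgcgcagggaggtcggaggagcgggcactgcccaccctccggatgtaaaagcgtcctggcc
The second, at chr16:18590672-18590921 (minus strand), has a GC content of 54.4% and a match 75 bases before the start:
Tbx1 second start: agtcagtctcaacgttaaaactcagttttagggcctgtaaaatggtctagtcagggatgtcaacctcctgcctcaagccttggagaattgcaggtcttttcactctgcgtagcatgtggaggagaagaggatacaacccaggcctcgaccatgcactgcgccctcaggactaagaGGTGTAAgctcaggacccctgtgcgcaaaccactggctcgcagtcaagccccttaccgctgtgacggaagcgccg
The Tbx18 window, at chr9:87731261-87731510 (minus strand), has a GC content of 54.0% and a match 217 bases before the start:
Tbx18: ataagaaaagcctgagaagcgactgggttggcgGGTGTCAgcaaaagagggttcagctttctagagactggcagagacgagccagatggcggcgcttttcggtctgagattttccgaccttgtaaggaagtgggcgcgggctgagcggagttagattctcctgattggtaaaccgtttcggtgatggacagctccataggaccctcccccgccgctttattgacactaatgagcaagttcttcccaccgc

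The motif GGTGTNA was found on either strand in 8.61% of the 32817 windows of this length in the table. Other motifs searched on both strands were ACANNTGT, the palindromic site of Iroquois factors, found in 6.32% of windows, ACAAAG of SOX factors, found in 16.5%, and AGATAA of zinc-finger factors of the GATA family, found in 9.99%. The list also held CTTTGAT of the WNT mediators TCF and LEF, found in 3.21%, and GTAAACA of forkhead factors, found in 3.16%. None of these 5 was in the 6 windows of the members. A match describes letters in a window and is not evidence of binding.

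Tbx18 and Tbx20, which lie far apart on chromosome 9, were detected at E11.5 and nearly lost afterwards. Tbx18, known from mesenchyme around the ureter and urogenital ridge, had 1.87, 0.734 and 11.3 CPM in XX on E11.5 against 6.74, 12.1 and 20.7 CPM in XY. XX replicate 3, the library with the highest stromal sum, lay inside the XY range. Tbx18 overlaps D030062O11Rik in the annotation, and reads of the overlap cannot be told apart. In all later libraries Tbx18 was at most 0.187 CPM. It fell by 4.95 (SE 0.85, edgeR adjusted p 0.000232) in XX and by 6.40 (SE 0.85, 2.70e-06) in XY over the first step, E11.5 to E12.5. Without XX E11.5 replicate 3 the XX fall in Tbx18 was 3.13 (adjusted p 0.00141). Tbx18 passed the filter through E11.5 libraries, so only a fall could be called over this step. The Tbx18 difference at E11.5, -1.53 (SE 0.61, edgeR adjusted p 0.0496), lay at the threshold and was lost in 22 of the 24 fits that left out 1 library, in DESeq2 (adjusted p 0.122) and without the filter (0.0744). The 2 fits that kept the call were those without XX E11.5 replicate 3, where the Tbx18 difference was -3.37, and without XY E11.5 replicate 1.

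Tbx20, a heart factor, had 4.38, 1.61 and 14.1 CPM in XX on E11.5 against 0.869, 0.723 and 2.90 CPM in XY, again with overlap and with XX replicate 3 the highest. The log2 difference of Tbx20 was 2.14 (SE 0.70, edgeR adjusted p 0.0206). It was not called without XX E11.5 replicate 3 (0.98, edgeR adjusted p 0.252), XY replicate 1 of that stage (1.86, 0.0853) or its replicate 2 (1.80, 0.0837), nor for Tbx20 with only the E11.5 libraries in the fit (adjusted p 0.135). From E11.5 to E12.5 Tbx20 fell by 5.51 (SE 0.91, edgeR adjusted p 0.000264) in XX and was at least 33.2-fold lower in XY, where none of the 3 libraries held a count (adjusted p 0.000311). As for Tbx18, only a fall could be called over this step. At E13.5, Tbx20 had 6, 17 and 5 counts in XX and 1 in XY, a ratio of 39.2 with a 95% counting interval of 6.48 to 1603 (edgeR adjusted p 0.00705). Tbx5, a factor of the forelimb and heart that lies 147.9 kb from Tbx3, had 10, 1 and 23 counts in XX E11.5, 3, 6 and 6 in XY E11.5 and at most 7 in any later library, and was not tested. Tbx5, Tbx18 and Tbx20 were each highest within XX E11.5 in replicate 3, and the part of the stromal and erythroid RNA of that library in their values was not tested.

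The steps between stages can be read together. From E11.5 to E12.5, 5 of 8 members were called in XX (1 higher and 4 lower at E12.5, beside 34.0% called among all genes, 16.7% higher and 17.3% lower). In XY, 5 of 8 were called over that step, all lower, beside 51.9% called among all genes, 27.1% higher and 24.8% lower. Irx1, Tbx18 and Tbx20 were near 0 after E11.5 and passed the filter through libraries of that stage. Over this step only a fall could therefore be called for them, and the direction was fixed in advance. Irx1, Tbx18 and Tbx20 are among the falls called in XX, and Tbx18 and Tbx20 among those in XY. Over the next step the counts were 2 in XX, both lower (31.7% of all genes called, 17.4% lower), and 4 in XY, 3 of them lower (16.6% called, 8.02% higher and 8.62% lower). From E13.5 to E15.5, Tbx3 was the 1 member called in XX, beside 25.6% of all genes. No member was called in XY over that step in edgeR (21.3% of all genes, 9.79% lower), with 1 at an unadjusted p under 0.05, and none was called in DESeq2. Across all 4 stages, the F test called 7 of 8 members in XX, beside 74.0% of all genes, and 6 of 8 in XY, beside 70.3%. For Irx1, Tbx18 and Tbx20 the same limit holds, as this test mainly returns the E11.5 level through which they passed the filter. The XX F test of Irx1 was not called without XX E11.5 replicate 1 (edgeR adjusted p 0.198). That of Tbx2 was not called without XX E12.5 replicate 3 (0.0798). The XX minus XY difference itself changed with stage for 5 of 8 members (70.1% of all genes): Irx3, Irx5, Tbx1, Tbx2 and Tbx3.

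Across the 8 groups, each gene had its own order of levels. For Irx3, the order by mean CPM was XX E12.5, XX E13.5 and XX E15.5, which overlapped, then XX E11.5 and the XY groups from E11.5 to E15.5. For Irx5 it was XX E15.5, XX E13.5 and XX E12.5, then XX E11.5, with overlap between the last 2 of these and between XX E11.5 and XY E11.5. Tbx2 was highest in XX E12.5 and XX E11.5, which overlapped, and XY E11.5 overlapped with XX E15.5 and XX E13.5 in the middle of the order. For Tbx3, XY E11.5 and XX E11.5 overlapped at the top, and XX E13.5, XX E12.5, XX E15.5 and XY E12.5 followed without overlap between neighbours.

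Genes with the most similar profile were looked up for the 4 members with a group mean of at least 10 CPM, as Pearson's r of log2 CPM over the 24 libraries among 10862 genes. For Irx3 they were Efna1, an ephrin ligand (r = 0.988), Itpr2, a calcium release channel (0.983), and Cib2 (0.978), and 286 genes had an r above 0.9. For Tbx2 they were Aff3 (0.976), the imprinted non-coding RNA H19 (0.971) and Tmem171 (0.971), with 283 genes above 0.9. For Tbx3 they were Fblim1 (0.957), Skida1 (0.953) and Hspa12a (0.950), with 90 genes above 0.9. For Tbx18 they were Shisa3 (0.953), Ntrk2, a neurotrophin receptor (0.951), and Cdh10 (0.932), with 17 genes above 0.9. H19 followed the XY fall of Tbx2, going from 376 ± 55.8 CPM on E11.5 to 13.4 ± 0.63 CPM on E12.5 in XY (n = 3 each), while XX libraries had 889 ± 382 and 809 ± 61.0 CPM. The 24 libraries share their sex and stage groups, and with so many genes above 0.9 the first 3 are not set apart.

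Factors that work with these proteins were taken from lists. Of 12 other TALE homeobox genes, which include the PBX and MEIS partners of homeodomain proteins, 6 were called between XX and XY at E11.5 (2 higher in XX), 10 at E12.5 (8 higher), 9 at E13.5 (7 higher) and 11 at E15.5 (7 higher). The shares of all genes called at these stages were 42.0%, 62.1%, 66.1% and 69.4%, with 21.4%, 30.5%, 32.8% and 34.9% higher in XX. Their median log2 difference was 0.01, 1.11, 1.27 and 1.18 at the 4 stages, beside 0.02, -0.01, 0.01 and 0.05 for all genes. Pbx3 had 26.2 ± 8.02 CPM in XX against 26.5 ± 2.96 CPM in XY on E11.5, then 79.8 ± 2.12 and 7.89 ± 0.48 CPM at E15.5 (n = 3 each), a log2 difference of 3.34 (SE 0.17, edgeR adjusted p 2.91e-13) at the last stage. Tgif1, a TALE repressor, went the other way, with 84.6 ± 6.0 CPM in XX against 198 ± 38.9 CPM in XY on E11.5 (log2 -1.22, edgeR adjusted p 8.11e-09) and was called higher in XY at all 4 stages. Of 6 Groucho corepressors, 2, 4, 5 and 6 were called at the 4 stages (1, 3, 3 and 4 of them higher in XX), beside the same shares of all genes. Tle3 was higher in XX and Tle4 in XY at each stage (log2 2.84 and -1.24 at E12.5, edgeR adjusted p 6.67e-11 and 3.85e-07).

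Of 11 other T-box genes, 3 were tested. None was called higher in XX at any stage, beside 21.4%, 30.5%, 32.8% and 34.9% of all genes at the 4 stages. At each stage 2 of the 3 were called higher in XY, beside 20.6%, 31.5%, 33.3% and 34.4% of all genes. With 3 genes these counts describe those genes only. Tbx22 was at 0.944 ± 0.243, 1.18 ± 0.19, 2.15 ± 0.28 and 0.786 ± 0.196 CPM in XY at the 4 stages (n = 3 each), and the 12 XX libraries held 2 Tbx22 counts in all. It was called higher in XY at every stage, with edgeR adjusted p from 5.64e-06 at E11.5 to 1.97e-05 at E15.5. Mga, which carries a T-box and a second DNA-binding domain, had 116 ± 21.2 CPM in XX against 140.4 ± 13.6 CPM in XY on E11.5, then 98.0 ± 6.67 and 196 ± 21.5 CPM at E15.5 (n = 3 each), called higher in XY from E12.5 on (edgeR adjusted p 4.07e-05 or less). Of 11 WNT pathway genes of the fetal ovary, 8, 9, 9 and 9 were called at the 4 stages, 6, 7, 7 and 8 of them higher in XX, again beside the shares of all genes given for the TALE list. Their median log2 difference was 1.23, 3.55, 3.07 and 2.63, beside 0.02, -0.01, 0.01 and 0.05 for all genes. Lef1, a nuclear mediator of WNT signals, was higher in XX by 3.05 (SE 0.19) at E11.5 and 7.37 (SE 0.25) at E12.5, with edgeR adjusted p of 8.85e-11 and 1.35e-15.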

How the data were processed

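RNA of 24 libraries from about 40000 sorted cells each was deposited by the authors as estimated counts per gene and as TPM. Per the labels' protocols, polyadenylated RNA was amplified with a low-input kit, and the build is mm10 (GRCm38) per the submitters' processing notes. The aligner, the counting program and the use of strand are not given in the sources used here. The estimated counts deposited by the authors (17.5% of values not whole) were rounded. No molecular identifiers are described, so intervals and floors of 3 counts cover counting error only. Genes were kept by filterByExpr, scaled by TMM and tested with edgeR 4.0.16 (R 4.3.3, robust quasi-likelihood, 1 mean per group, 16 residual degrees of freedom, common biological coefficient of variation 17.4%), with p-values adjusted by Benjamini-Hochberg over 16190 genes and called under 0.05. All adjusted p-values in the text are from this test unless DESeq2 1.42.0 or limma 3.58.1 is named. The TPM deposited by the authors were used to compare levels between genes and, as log2(TPM + 1), in limma. CPM are on TMM-scaled library sizes.

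The members and lists were chosen with earlier results of these data known. Named genes were the members, every gene of the lists and the 3 genes with the highest correlation to each member at 10 CPM or more. Positions are from GENCODE M21 and promoters from RefSeq. Replicates of a group differed by more than counting noise in all 24 pairs. Alternatives were other scalings, filters, tools, pseudocounts, an added fold threshold, a replicate block, fits of only the libraries compared and each library left out.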

Additional observations from a re-analysis of the deposited data

Results flagged for a closer look

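The XX minus XY difference changed over the 4 stages for 5 members by the sex-by-stage interaction in edgeR. The adjusted p was 0.0380 for Irx3, 0.000388 for Irx5, 0.00116 for Tbx1, 1.34e-07 for Tbx2 and 1.88e-07 for Tbx3. For Irx3, Irx5, Tbx2 and Tbx3 the difference moved towards XX after E11.5. The Tbx1 log2 difference went from 2.25 at E12.5, which was not called, to -4.60 at E13.5. The Irx3 call was lost in 10 of the 24 fits that each left out 1 library. These were the fits without XX E11.5 replicate 1 (Irx3 adjusted p 0.0671), each XY E11.5 replicate (0.0512, 0.142 and 0.0595), XY E13.5 replicate 1 (0.0537) or 2 (0.0516), XX E15.5 replicate 2 (0.0504) and each XY E15.5 replicate (0.0523, 0.0555 and 0.0584). The Irx3 call was also lost without the filter (0.0885).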

How the results depend on the processing

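No member changed the sign of a called difference under any alternative run. Counts of members called moved by more than 1.5 times in these cases. For the XX step from E12.5 to E13.5 (2 called), 1 was called without the filter, with limma on log2(TPM + 1) with or without its filter, and with an absolute log2 change of at least 1 in addition. For the XY step from E12.5 to E13.5 (4 called), 2 were called without the filter or with only the libraries compared, and 0 with limma on log2(TPM + 1) with or without its filter. For the XX step from E11.5 to E12.5 (5 called), 3 were called with limma on log2(TPM + 1) or log2(TPM + 0.1) and with only the libraries compared. For XX minus XY at E12.5 (4 called), DESeq2 called 8, adding Tbx1 and Tbx20, and Irx2 and Tbx5, which edgeR had not tested, and 7 were called without XX E11.5 replicate 2 and XY E11.5 replicate 3 together, which was chosen after seeing the data. The F test in XY (6 called) gave 3 with limma without its filter. With only the libraries compared, 1 member in place of 4 was called at E11.5 between XX and XY, and 2 in place of 1 from E13.5 to E15.5 in XX, where leaving out both libraries named above also gave 2. The causes were not tested. Requiring at least 10 counts in every library left no member to test.

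With 1 library left out, members called between XX and XY ranged from 2 to 4 at E11.5, 4 to 7 at E12.5, 6 to 6 at E13.5 and 5 to 5 at E15.5. In XX the steps gave 3 to 8, 0 to 3 and 1 to 1 and the F test 6 to 10, and in XY the steps gave 4 to 6, 0 to 4 and 0 to 0 and the F test 6 to 10. The interaction gave 4 to 6. Some of these fits also tested Irx2 or Tbx5.

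Replicate numbers were not taken to pair the samples: deviations of same-numbered XX and XY libraries of a stage had a median correlation of 0.0576 (12 pairs, -0.103 to 0.358, 5 over 0.1), and 31 of 168 pairs with different numbers were over 0.1. With the replicate block, Tbx1 (adjusted p 0.0434) and Tbx20 (0.0412) were called at E12.5 between XX and XY, Irx3 in the XX F test (0.0157) and Irx1 in the XY F test (0.0290), and the XY step of Irx5 from E12.5 to E13.5 was lost (0.0571).

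Of all genes, adding a minimum log2 change of 1 in either direction left 2784, 5434, 6071 and 6704 called between XX and XY at the 4 stages, 2107, 1404 and 1275 over the XX steps and 4149, 937 and 1396 over the XY steps. With only the libraries compared, 2718 genes were called at E11.5 between XX and XY, 1176 over the first XX step, and 4317 and 6111 over the last 2 XY steps. On log2(TPM + 1), the median of all genes shifted to 0.14 for XX minus XY at E12.5, -0.17 for the second XX step and -0.13 for the first XY step, and log2 differences of low members such as Irx5 shrank (1.66 at E13.5). Depth limited Irx1, Irx2, Tbx5, Tbx18 and Tbx20 after E11.5, and Irx5 in XY, where groups held few counts. It also limited Irx3 in XY at E13.5 and E15.5, and Tbx1 in XX at the same stages.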
